A study of Mus musculus with 90 samples.

Results

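The proximal tubule is the stretch of the nephron that takes back most of the glucose, phosphate, bicarbonate, amino acids and filtered protein, and it secretes organic anions and cations into the urine. Its early segments, S1 and S2, run in the kidney cortex and carry high-capacity carriers, while the late segment, S3, descends into the outer stripe of the outer medulla and carries high-affinity carriers that recover what is left. The tubule also activates vitamin D and makes guanidinoacetate and arginine.

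The genes described here are 41 transporters, endocytic receptors, enzymes and regulators of the proximal tubule, of 16593 named genes on the array. They were taken by gene symbol, and each gene is represented by its brightest detected probe. Of the 41 genes, 35 had a probe, 29 were detected in kidney medulla and 31 in kidney cortex. Of the carriers, 8 are counted as early segment genes here and 6 as late segment genes, from textbook knowledge of mouse kidney and with earlier results of these data known. The other 27 are not placed in a single segment. Of the 8 early genes, 6 were tested in medulla and 7 in cortex, and of the 6 late genes 3 were tested in each zone.

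The samples were kidney medulla and kidney cortex of Balb/c mice killed 24 h after intravenous injection of 211At, an isotope of astatine that decays by emitting alpha particles. The injected activities were 0.064, 0.64, 1.8, 14 and 42 kBq, with 0 kBq as the control. Each zone had 3 arrays per activity, which made 36 kidney arrays among 90 arrays of 5 tissues. The study's question was the transcriptional response of normal tissue to small radiation doses. The sex and age of the mice, the vehicle, and whether an array stands for 1 animal or a pool are not given in the sources used here, nor is whether medulla and cortex came from the same animals. The p-values therefore measure only the spread between these arrays.

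Levels are log2 intensities of biotin-labelled total RNA on Illumina bead arrays, and a change is a difference of log2 levels between group means. Between 12513 and 13645 probes were detected on a kidney array. The deposited values showed 2 array sets: the 24 kidney arrays of 0, 1.8, 14 and 42 kBq formed one, and the 12 arrays of 0.064 and 0.64 kBq the other. Within a group, the median SD of the members in the first set was 0.122 in medulla and 0.139 in cortex, against 0.174 and 0.196 over all probes. In the second set the members' median SD was 0.178 in medulla and 0.237 in cortex. Array 1 of the 0.64 kBq group stood apart in Xist, the transcript that silences one X chromosome, with 4.57 in medulla and 4.86 in cortex, while the other kidney arrays lay between 6.94 and 8.63. That group is not compared with 0 kBq below, but its arrays enter the normalisation and the estimate of spread in the reported fits.

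At 0 kBq the tested late and early genes differed between the zones in opposite directions. Their lists were chosen with earlier results of these data known, so this is a description. Lower levels in medulla were not limited to the early genes. In kidney medulla against kidney cortex at 0 kBq, late segment genes were higher and early segment genes lower: 3 of the 3 tested late genes were higher and 6 of the 7 tested early genes were lower. Over all 31 members, 5 were higher, 19 were lower and 7 did not pass the test, at an adjusted p under 0.05 in limma with Benjamini-Hochberg adjustment over 16486 probes. Of all probes, 24.6% were called in this comparison, 11.5% higher and 13.1% lower in medulla. The median difference was 0.84 for the late genes, -1.25 for the early genes, -0.63 for all members and -0.02 for all probes. In bulk tissue, fewer cells of a type and less RNA per cell cannot be told apart.

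Among the late genes, Slc22a7, which encodes an organic anion transporter, had 8.95, 9.09 and 8.94 in medulla, against 5.91, 5.88 and 6.55 in cortex. The difference was 2.89 ± 0.23 (SE), or 7.39-fold, with a limma adjusted p of 5.65e-12. Every medulla array stood far above every cortex array. The size depended on the background correction, with 1.85 for Slc22a7 without one and 1.75 in the deposited value table. Slc5a8, a sodium-coupled carrier of lactate and other monocarboxylates, averaged 10.90 ± 0.12 in medulla and 10.12 ± 0.14 in cortex (SD, n = 3 arrays each), a difference of 0.78 (limma adjusted p = 0.000345). Slc5a1, which encodes the high-affinity glucose carrier SGLT1, averaged 7.70 ± 0.26 in medulla and 6.86 ± 0.26 in cortex (SD, n = 3 arrays each), a difference of 0.84 (limma adjusted p = 7.02e-05). Neither gene's zones overlapped.

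Among the early genes, Slc5a2, which encodes the high-capacity glucose carrier SGLT2, had 9.09, 9.08 and 9.06 in medulla, against 10.85, 10.75 and 10.74 in cortex. The difference was -1.70 ± 0.19 (SE), 3.26-fold lower in medulla (limma adjusted p = 1.56e-08). The glucose pair thus ran in opposite directions between the zones. Slc34a3, a sodium-phosphate cotransporter, differed by -1.52, Slc6a19, the carrier of neutral amino acids, by -1.27, Slc2a2, the basolateral glucose transporter GLUT2, by -1.25, and Slc7a9, the light chain of the cystine carrier, by -0.87. Slc34a1, the principal sodium-phosphate cotransporter of the tubule, had the smallest called difference of the early genes, -0.43, with 14.58 ± 0.15 in medulla and 15.00 ± 0.08 in cortex (SD, n = 3 arrays each; limma adjusted p = 0.00048). Under median scaling its difference was -0.91. The basolateral bicarbonate cotransporter Slc4a4 was near background in both zones and differed by 0.04.

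Outside the segment lists, 2 members were higher in medulla: Slc17a3, an anion transporter of the phosphate cotransporter family that carries urate, and the water channel gene Aqp1. Slc17a3 averaged 10.66 ± 0.11 in medulla and 9.75 ± 0.07 in cortex (SD, n = 3 arrays each), a difference of 0.91 (limma adjusted p = 7.98e-05). Aqp1 averaged 13.92 ± 0.09 in medulla and 13.33 ± 0.03 in cortex (SD, n = 3 arrays each), a difference of 0.58 (limma adjusted p = 5.54e-06), which was 0.33 with an adjusted p of 0.0836 under median scaling. Aqp1 is also made by thin descending limbs and vessels. The largest differences downward were in Slc22a8, a basolateral organic anion transporter (-2.05), Gatm, the first enzyme of creatine synthesis (-2.03), and Cyp27b1, which hydroxylates 25-hydroxyvitamin D to its active form (-1.99). Cyp27b1 had 5.14, 5.28 and 5.48 in medulla, against 7.01, 7.23 and 7.64 in cortex, and its difference was -0.89 without background correction. Kl, the klotho co-receptor for FGF23, which distal tubules also make, differed by -1.13, Slc7a7, the light chain of the basolateral cationic amino acid exchanger, by -1.24, and Hnf4a, a transcription factor of the tubule, by -0.79. The call for Acsm3 (-1.14, limma adjusted p = 0.0286) was lost when any of 4 of the 6 arrays was left out (replicates 1 and 3 of medulla, 2 and 3 of cortex; adjusted p 0.0646 to 0.0873). Amn and Slc6a20b were called lower in medulla in the reported fit and under all 18 alternative settings. Under those settings the difference lay between -0.99 and -0.68 for Amn, and between -0.57 and -0.34 for Slc6a20b. The 7 members that did not pass were Pdzk1, Slc4a4, Slc22a2, Slc22a12, Slc22a18, Slc17a1 and Lrp2.

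The labelled zones were set against markers of other nephron parts. Aqp4, a collecting duct water channel, was higher in medulla by 5.21 and was detected on 1 of the 3 cortex arrays, Aqp2 was higher by 1.78, and Slc12a1, the cotransporter of the thick ascending limb, by 1.96, while Slc14a2, the urea transporter of the inner medullary collecting duct, was at least 19.5-fold higher in medulla and undetected in cortex. Slc12a3 of the distal convoluted tubule was lower in medulla, with a log2 difference of -1.02, as was the podocyte gene Podxl, with -0.87. Proximal tubule genes were bright in the pieces labelled medulla too, with Slc34a1 at 14.58.

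**Figure D1:**
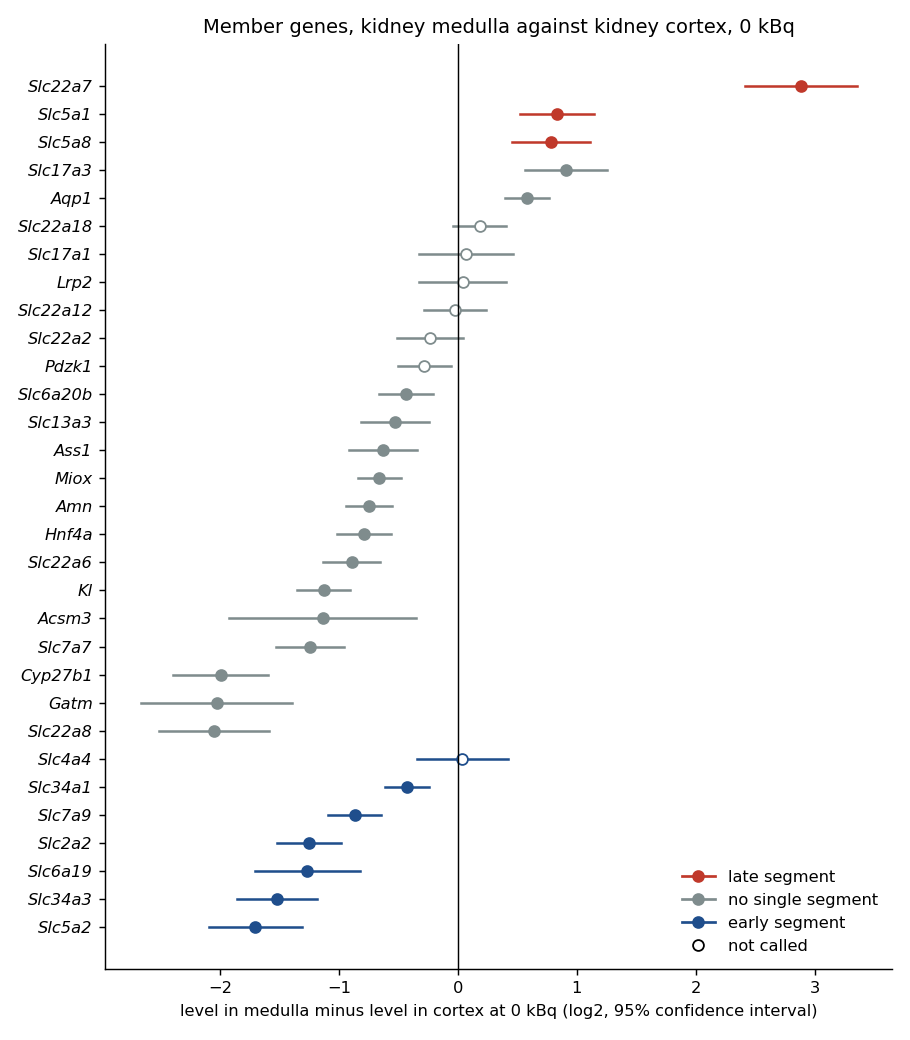
Difference of log2 level, kidney medulla minus kidney cortex at 0 kBq, for the 31 tested members. Points are differences of means of 3 arrays each and bars are 95% confidence intervals; colours mark late, early and unplaced genes, and open points did not pass the test. Slc22a7 lies farthest to the right at 2.89, and the called early genes lie between -1.70 and -0.43.

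The promoters of 4 members whose levels differed between the zones and changed after injection are shown as sequence context for the results below. They are the 250 bases before the transcription start, from RefSeq on GRCm38.p6, plus strand, at chr5:33103969-33104218 for Slc5a1, chr10:88885742-88885991 for Slc5a8, chr13:23839184-23839433 for Slc17a3 and chr10:127047996-127048245 for Cyp27b1. Capitals mark the half-site AGTCCA of the HNF4 family, read here on the minus strand as its reverse complement.
Slc5a1: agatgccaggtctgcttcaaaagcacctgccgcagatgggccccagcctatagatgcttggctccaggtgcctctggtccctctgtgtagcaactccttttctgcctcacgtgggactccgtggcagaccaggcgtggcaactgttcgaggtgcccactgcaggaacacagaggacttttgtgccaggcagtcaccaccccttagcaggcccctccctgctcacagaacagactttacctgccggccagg
Slc5a8: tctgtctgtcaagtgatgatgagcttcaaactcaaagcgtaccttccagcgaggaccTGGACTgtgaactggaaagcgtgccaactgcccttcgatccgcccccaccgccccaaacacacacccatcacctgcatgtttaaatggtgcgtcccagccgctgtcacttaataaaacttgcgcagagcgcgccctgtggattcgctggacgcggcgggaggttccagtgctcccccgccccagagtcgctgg
Slc17a3: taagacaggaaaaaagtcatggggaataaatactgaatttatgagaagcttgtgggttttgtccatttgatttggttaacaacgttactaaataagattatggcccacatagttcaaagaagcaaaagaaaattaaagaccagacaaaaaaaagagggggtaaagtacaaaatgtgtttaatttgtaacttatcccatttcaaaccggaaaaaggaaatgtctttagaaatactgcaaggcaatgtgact
Cyp27b1: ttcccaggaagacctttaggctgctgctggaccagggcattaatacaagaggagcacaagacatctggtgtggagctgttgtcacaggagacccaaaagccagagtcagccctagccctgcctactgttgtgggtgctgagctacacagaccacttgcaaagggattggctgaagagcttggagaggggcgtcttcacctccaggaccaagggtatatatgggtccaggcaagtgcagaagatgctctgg
With both strands searched, the promoter of Slc5a8 held the half-site and those of the other 3 did not. HNF4A is a transcription factor of the proximal tubule, and its mouse gene, Hnf4a, is a member. Of the 35 members with a promoter in the table, 9 held AGTCCA before at least 1 of their start sites (25.7%), as did 13.1% of 27025 genes in windows of the same length. A match in these windows is a description of sequence. Slc5a2 and Slc22a7, whose levels also feature below, are named without a sequence.

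At 42 kBq in kidney cortex, the 3 tested late segment genes rose while none of the 7 early genes was called. Slc22a7, Slc5a8 and Slc5a1 were higher than at 0 kBq by 3.8-fold, 2.15-fold and 2.03-fold, and Cyp27b1 and Slc7a7 were lower. Of the 31 members 5 were called, 3 up and 2 down, where 1.7% of all 15063 probes were called, 1.36% up and 0.339% down. The median change was 1.11 for the late genes, -0.26 for the early genes, -0.09 for all members and -0.02 for all probes.

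Slc22a7 had 7.80, 7.98 and 8.11 in cortex at 42 kBq, against 5.83, 5.80 and 6.47 at 0 kBq. The 42 kBq arrays lay wholly above the controls, and the change was 1.93 ± 0.27 (SE, 95% CI 1.36 to 2.49; limma adjusted p = 0.000208). Slc5a8 had 11.16, 11.26 and 11.25 at 42 kBq, against 9.95, 10.18 and 10.22 at 0 kBq. Its change was 1.11 ± 0.20 (SE; limma adjusted p = 0.00346), again without overlap. Slc5a1 had 7.87, 7.78 and 7.80 at 42 kBq, against 7.05, 6.81 and 6.53 at 0 kBq. The change in this glucose carrier was 1.02 ± 0.18 (SE; limma adjusted p = 0.00309), and its 3 arrays at 42 kBq lay close together above all controls. Without background correction the changes were 1.06 for Slc22a7 and 0.61 for Slc5a1, both still called.

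The 2 members that fell in cortex at 42 kBq were Cyp27b1 and Slc7a7. Cyp27b1 had 5.96, 5.69 and 6.14, against 6.94, 7.16 and 7.59 at 0 kBq, and the vitamin D hydroxylase was lower on all 3 arrays. The change was -1.30 ± 0.19 (SE), 2.46-fold lower (limma adjusted p = 0.000392), and -0.63 without background correction. Slc7a7 had 11.23, 11.16 and 11.16, against 11.92, 11.82 and 11.78 at 0 kBq. Its change was -0.66 ± 0.16 (SE; limma adjusted p = 0.0458), a second probe of the gene gave -0.61 (adjusted p = 0.0408), and the call of the first was lost when any 1 of the 6 arrays was left out (adjusted p 0.116 to 0.19).

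The 7 early genes were all below their control means in cortex at 42 kBq without passing the test, and 4 of them had an unadjusted p under 0.05. Among the 7, Slc4a4 was near background, detected on 1 of the 3 arrays at 0 kBq and on none at 42 kBq. Of all probes, 54.3% were below their control means and 11.2% had an unadjusted p under 0.05. Slc5a2 had 10.12, 9.88 and 9.99, against 10.87, 10.76 and 10.76 at 0 kBq. The groups did not overlap, and the change was -0.80 (95% CI -1.28 to -0.31; limma adjusted p = 0.101). Slc34a3 had 10.022, 10.095 and 10.002, against 10.68, 10.48 and 10.54 at 0 kBq, a change of -0.53 (limma adjusted p = 0.238). In the limma fit without the 0.064 and 0.64 kBq arrays the adjusted p was 6.38e-06 for Slc5a2 and 0.00512 for Slc34a3, and 9 members were called. Over all probes that fit called 800 of 14328, 537 up and 263 down, against 256 of 15063 in the reported fit. The log2 differences of the other early genes were -0.04 for Slc34a1 (95% CI -0.21 to 0.14), -0.09 for Slc4a4, -0.19 for Slc6a19, -0.26 for Slc7a9 and -0.32 for Slc2a2.

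Markers of other nephron parts moved in cortex at 42 kBq as well. The summed intensity of the 5 thick ascending limb genes was 42819 to 46240 at 42 kBq, against 29462 to 32535 at 0 kBq, and Slc12a1 was higher by 0.92 (limma adjusted p = 0.00229). Aqp4 averaged 8.05 ± 0.19 at 42 kBq and 5.03 ± 0.31 at 0 kBq (SD, n = 3 arrays each), and was detected on 1 of the 3 control arrays. Slc14a2, the urea transporter gene, had 5.83, 4.63 and 5.81 at 42 kBq, against 4.40, 4.56 and 4.41 at 0 kBq, where it was not detected. Havcr1, a marker of proximal tubule injury, was higher by 2.80 (limma adjusted p = 0.0146), while the sum of the 6 detected of 8 tubular injury genes was 4879 to 5290 at 42 kBq, against 5078 to 5398 at 0 kBq, and overlapped. The sum of the 7 detected of 8 collecting duct genes was 4696 to 4824 at 42 kBq, against 4449 to 4638, that of 2 of 3 distal convoluted tubule genes 13787 to 14164, against 14890 to 16205, and that of 3 of 6 glomerular genes 1200 to 1531, against 1312 to 1461. Kap, an androgen-regulated tubule gene, had 13.88, 13.05 and 13.55 at 42 kBq, against 10.42, 9.70 and 9.93 at 0 kBq, and the 4 detected of 6 genes with higher levels in male mouse kidney summed to 10356 to 16651, against 2746 to 3093. The 3 detected of 4 genes with higher levels in female mouse kidney, a list that holds the member Slc22a7, summed to 10362 to 11542 at 42 kBq, against 8869 to 9088. The part of these shifts in the members' changes was not tested.

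The comparison of cortex at 42 kBq with 0 kBq and that of medulla with cortex at 0 kBq share the cortex arrays at 0 kBq, so their values are given side by side only. Slc22a7 had 1.93 in the first and 2.89 in the second, Slc5a8 1.11 and 0.78, Slc5a1 1.02 and 0.84, Cyp27b1 -1.30 and -1.99, Slc7a7 -0.66 and -1.24, Slc5a2 -0.80 and -1.70, and Slc34a3 -0.53 and -1.52. Aqp1 had 0.17 and 0.58, and Slc22a8 had -0.05 and -2.05, and neither was called in cortex at 42 kBq.

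**Figure D2:**
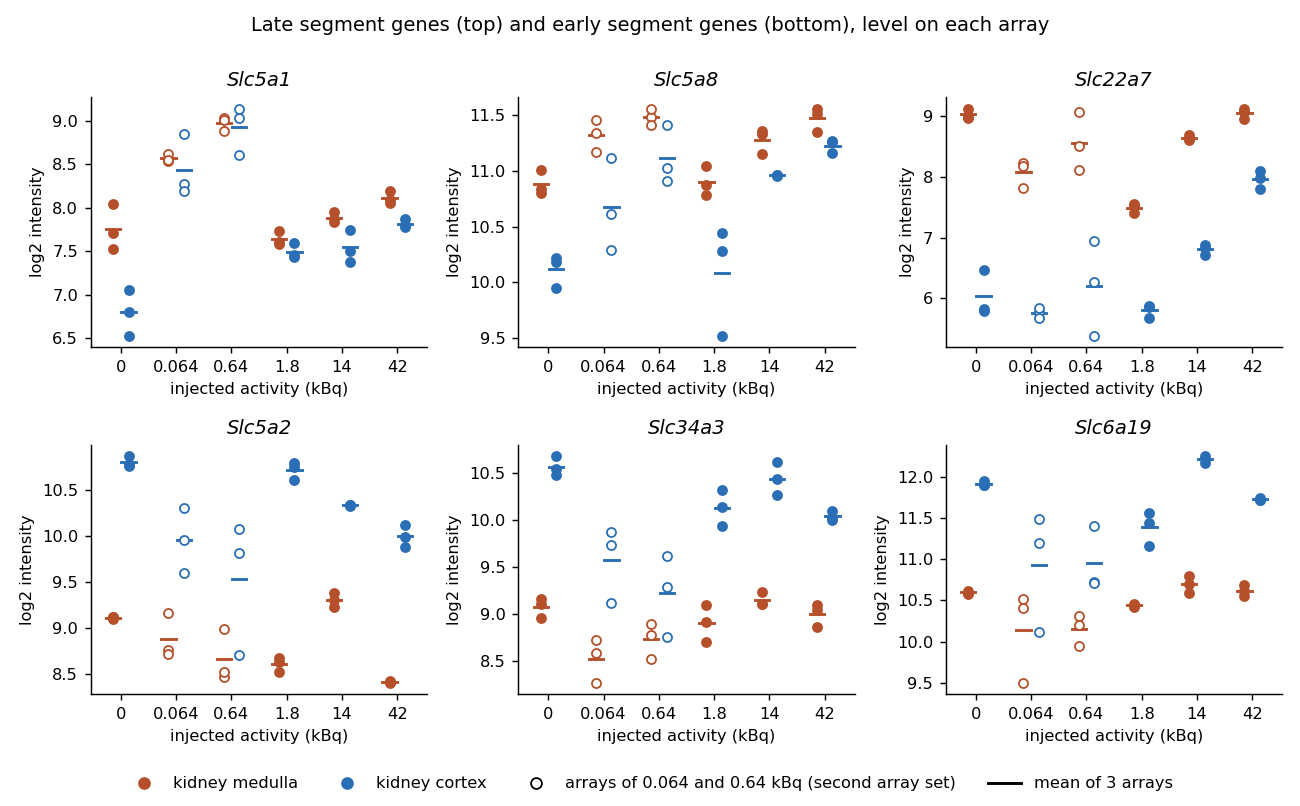
Log2 level on each array by injected activity in kBq for 3 late genes (upper row: Slc5a1, Slc5a8, Slc22a7) and 3 early genes (lower row: Slc5a2, Slc34a3, Slc6a19). At each activity medulla stands left in orange-brown and cortex right in blue, open points are the second array set (0.064 and 0.64 kBq) and each bar is the mean of 3 arrays. In cortex Slc22a7 lies at 7.80 to 8.11 at 42 kBq and at 5.80 to 6.47 at 0 kBq.

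At 42 kBq in kidney medulla, Slc5a8 rose, and Slc5a2, Slc7a7, Lrp2 and Slc17a3 fell. Of 29 members 5 were called, 1 up and 4 down, where 5.05% of all 15298 probes were called, 2.06% up and 2.99% down. Under median scaling, the split over all probes was 91 up and 326 down, against 315 and 457 in the reported fit. Slc5a8 had 11.55, 11.51 and 11.35 at 42 kBq, against 11.01, 10.84 and 10.80 at 0 kBq, and did not overlap. Its change was 0.59 ± 0.10 (SE; limma adjusted p = 0.00072), 1.51-fold.

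Slc5a2 had 8.43, 8.40 and 8.42 in medulla at 42 kBq, against 9.12, 9.12 and 9.09 at 0 kBq. This early glucose carrier was lower on every array, with a change of -0.70 ± 0.13 (SE; limma adjusted p = 0.00189). Slc7a7 had 10.08, 9.83 and 9.97 at 42 kBq, against 10.65, 10.50 and 10.48 at 0 kBq, a change of -0.58 (limma adjusted p = 0.00154), while its second probe gave -0.33 (adjusted p = 0.0639). Lrp2, which encodes megalin, the receptor that takes up filtered protein, had 5.39, 5.49 and 5.41, against 6.18, 6.18 and 5.83 at 0 kBq, a change of -0.63 (limma adjusted p = 0.0285). Slc17a3 had 10.004, 10.13 and 10.19, against 10.57, 10.61 and 10.76 at 0 kBq, a change of -0.54 (limma adjusted p = 0.0365), and its other probes gave -0.55 (adjusted p = 0.0936) and -0.15 (adjusted p = 0.755). Both calls depended on single arrays: that of Lrp2 was lost when any of 5 of the 6 arrays was left out, all but 0 kBq replicate 3 (adjusted p 0.0649 to 0.109), and that of Slc17a3 when any of the 6 was left out (adjusted p 0.0702 to 0.127). The other late genes did not pass, with differences of 0.35 (limma adjusted p = 0.0865) for Slc5a1 and 0.02 (95% CI -0.31 to 0.35) for Slc22a7. Cyp27b1 had 5.50, 4.99 and 4.60 and was detected on 1 of the 3 arrays. The thick ascending limb sum in medulla was 53731 to 59435 at 42 kBq, against 51848 to 56876 at 0 kBq, and that of the tubular injury genes 4165 to 4409, against 5243 to 5632. The 3 detected of 5 leukocyte genes summed to 974 to 1096 in medulla at 42 kBq, against 2159 to 2348 at 0 kBq, and the 4 detected of 6 male-raised genes to 16523 to 17564, against 20358 to 21191. The part of these sums in the members' changes was not tested.

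At 14 kBq no member passed the test in limma in either zone, and 6 members in each zone had an unadjusted p under 0.05, as did 11.6% of all probes in medulla and 8.56% in cortex. Of all probes, 0.438% were called in medulla, 0.216% up and 0.222% down, and 0.119% in cortex, 0.0929% up and 0.0266% down (14 and 4 probes, and 24 and 1 under median scaling). The late genes in cortex stood above the controls on every array. Slc22a7 had 6.71, 6.88 and 6.83 at 14 kBq, a change of 0.77 against the 0 kBq arrays (limma adjusted p = 0.349). Slc5a8 had 10.95, 10.96 and 10.96, a change of 0.84 (limma adjusted p = 0.108). Slc5a1 had 7.74, 7.51 and 7.38, a change of 0.75 (limma adjusted p = 0.123). None of these overlapped its 0 kBq arrays, and the early median was -0.04 with Slc5a2 at -0.47. Without the 0.064 and 0.64 kBq arrays 4 members were called in cortex, these 3 up (adjusted p 0.0236, 0.00759 and 0.00759 for Slc22a7, Slc5a8 and Slc5a1) and Slc5a2 down (adjusted p = 0.00453). That fit called 396 of 14328 probes, 244 up and 152 down, against 18 of 15063 in the reported fit. In medulla, Slc5a8 had 11.33, 11.35 and 11.15 at 14 kBq, against 11.01, 10.84 and 10.80 at 0 kBq, a change of 0.40 (limma adjusted p = 0.0593) that was called without replicate 3 of the 14 kBq group. Slc22a7 in medulla differed by -0.39, and the early and late medians there were both 0.13. In cortex the thick ascending limb sum was 38119 to 39757 at 14 kBq, against 29462 to 32535 at 0 kBq, the male-raised sum 5069 to 7673, against 2746 to 3093, and the endothelial sum of 4 genes 2401 to 2605, against 1816 to 2143. The sum of the 4 detected of 5 leukocyte genes in cortex was lower, 349 to 466 at 14 kBq, against 637 to 800 at 0 kBq. In medulla the leukocyte sum was 1600 to 1917 at 14 kBq, against 2159 to 2348, the male-raised sum 13296 to 19345, against 20358 to 21191, and the female-raised sum 7508 to 7938, against 8447 to 9790. The part of these sums in the members' values was not tested.

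At 1.8 kBq members were called in medulla and none in cortex. In medulla 9 of 29 members were called, 2 up and 7 down, but 26.6% of all probes were called there, 13.4% up and 13.3% down, so the share of members called was near the background. Median scaling gave 895 up and 2372 down over all probes, against 2046 and 2029 in the reported fit, and among the members 1 up and 12 down. In cortex no member passed the test in limma, 11 of 31 had an unadjusted p under 0.05, as did 14.5% of all probes, and 2% of all probes were called, 1.5% up and 0.498% down (226 and 75 probes, and 233 and 31 under median scaling).

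Slc17a3 and Slc22a7, which are higher in medulla than in cortex at 0 kBq, had the largest falls in medulla at 1.8 kBq. Slc17a3 had 9.25, 9.15 and 8.92 at 1.8 kBq, against 10.57, 10.61 and 10.76 at 0 kBq. The groups were far apart, and the change was -1.54 ± 0.15 (SE), 2.91-fold lower (limma adjusted p = 8.96e-08). The other probes of Slc17a3 gave -1.44 (adjusted p = 6.65e-06) and -1.14 (adjusted p = 0.000184). Slc22a7 had 7.40, 7.56 and 7.52 at 1.8 kBq, against 8.99, 9.13 and 8.98 at 0 kBq. Its change was -1.54 ± 0.16 (SE), 2.9-fold lower (limma adjusted p = 2.15e-07), also without overlap.

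Among endocytic and scaffold genes, Lrp2 had 5.22, 5.30 and 5.17 in medulla at 1.8 kBq, against 6.18, 6.18 and 5.83 at 0 kBq, a change of -0.83 ± 0.17 (SE; limma adjusted p = 0.000619), and -0.29 without background correction. Pdzk1, the PDZ scaffold of brush border carriers, had 13.63, 13.65 and 13.62, against 14.09, 14.11 and 13.77 at 0 kBq, a change of -0.35 (limma adjusted p = 0.0138) whose call was lost without replicate 1 or replicate 2 of the 0 kBq group (adjusted p 0.0685 and 0.0779). Lrp2 and Pdzk1 act at the apical membrane, and neither overlapped its controls. Another endocytic gene, Amn, went the other way, with 12.17, 12.36 and 12.18, against 12.04, 12.11 and 11.85 at 0 kBq. Its change of 0.24 was not called (limma adjusted p = 0.066, and 0.0424 without the 0.064 and 0.64 kBq arrays). Miox, the renal enzyme that opens the myo-inositol ring, had 13.44, 13.38 and 13.43, against 13.84, 13.88 and 13.88 at 0 kBq, a change of -0.45 (limma adjusted p = 0.000631). Slc22a18, an organic cation transporter-like gene, had 11.71, 11.65 and 11.75, against 12.25, 12.34 and 12.19 at 0 kBq, a change of -0.56 (limma adjusted p = 6.84e-05). Slc5a2 had 8.68, 8.63 and 8.52, against 9.12, 9.12 and 9.09 at 0 kBq, a change of -0.50 (limma adjusted p = 0.0046). In these 3 genes too the 1.8 kBq arrays lay below all control arrays.

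The 2 members that rose in medulla at 1.8 kBq were Cyp27b1 and Slc22a8. Cyp27b1 had 6.69, 6.27 and 6.32, against 5.19, 5.34 and 5.55 at 0 kBq, detected on all 6 arrays. Its change was 1.07 ± 0.21 (SE), 2.1-fold (limma adjusted p = 0.000523), and 0.41 without background correction. Slc22a8 had 7.63, 7.48 and 7.82, against 7.07, 7.03 and 7.15 at 0 kBq, a change of 0.56 (limma adjusted p = 0.0361) whose call was lost when any array but 1.8 kBq replicate 2 was left out (adjusted p 0.0607 to 0.138). Slc5a1, Slc5a8 and Slc34a1 did not pass there, with differences of -0.12, 0.02 and 0.05.

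For 3 members the probes disagreed in medulla at 1.8 kBq. Aqp1 had a difference of 0.04 on its brightest probe, and of -0.71 (limma adjusted p = 5.45e-07) and -0.47 (adjusted p = 0.000657) on the others. Slc7a9 had 0.21 (limma adjusted p = 0.0928) on the brightest, and -0.39 (adjusted p = 0.0212) and -1.12 (adjusted p = 0.000258) on the others. Slc2a2 had -0.04 on the brightest, and -0.46 (limma adjusted p = 0.0508) and -0.47 (adjusted p = 0.022) on the others. No direction is given for these genes.

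In cortex at 1.8 kBq, 27 of the 31 members were below their control means, as were 52.2% of all probes, and the median was -0.17 against -0.01 over all probes. Slc5a1 had 7.60, 7.43 and 7.46 at 1.8 kBq, against 7.05, 6.81 and 6.53 at 0 kBq, a change of 0.70 without overlap (limma adjusted p = 0.0546, and 0.0152 with the replicate number as a block). Miox had 14.31, 14.26 and 14.31, against 14.66, 14.57 and 14.66 at 0 kBq, a change of -0.34 (limma adjusted p = 0.0581, and 0.0479 with the block). Slc17a3 had 10.32, 10.26 and 10.24, against 9.73, 9.68 and 9.82 at 0 kBq, a change of 0.53 (limma adjusted p = 0.117), while its other probes gave -0.19 (adjusted p = 0.801) and -0.42 (adjusted p = 0.548). The late genes did not move as one at 1.8 kBq, since Slc22a7 differed by -0.23 and Slc5a8 by -0.04. The early median was -0.16, the value of Slc4a4, which was not detected at 1.8 kBq. Without the 0.064 and 0.64 kBq arrays 8 members were called in cortex: Slc5a1 and Slc17a3 up, and Slc34a3, Slc6a19, Slc22a6, Miox, Pdzk1 and Kl down. Calls over all probes rose as well, to 1293 of 14328, 794 up and 499 down, against 301 of 15063 in the reported fit.

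Injury and other markers moved at 1.8 kBq in both zones. The 6 detected of 8 tubular injury genes summed to 8857 to 9277 in medulla at 1.8 kBq, against 5243 to 5632 at 0 kBq, and to 8777 to 9606 in cortex, against 5078 to 5398. Lcn2, an early injury gene, was higher by 3.28 in medulla and by 3.60 in cortex, and Havcr1, which encodes the injury molecule KIM-1, changed by -0.68 in medulla and by 3.71 in cortex. The single detected fat gene of 4, Adipoq, lay between 245 and 312 in intensity in medulla at 1.8 kBq, against 33.7 to 41.3 at 0 kBq, and rose by 2.92 (limma adjusted p = 0.000303). In cortex it lay between 24.5 and 31.9 at 1.8 kBq, against 134 to 144. The leukocyte sum in medulla was 1373 to 1625 at 1.8 kBq, against 2159 to 2348, and the male-raised sum 8029 to 10871, against 20358 to 21191. The sum of the 3 intercalated cell genes was 4286 to 4650 in medulla at 1.8 kBq, against 2778 to 3137, while the thick ascending limb sum was 51554 to 54952, against 51848 to 56876. Kap had 12.73, 13.06 and 13.24 in medulla at 1.8 kBq, against 14.23, 14.28 and 14.26, and 8.17, 7.44 and 8.60 in cortex, against 10.42, 9.70 and 9.93. Their part in the members' changes was not tested.

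**Figure D3:**
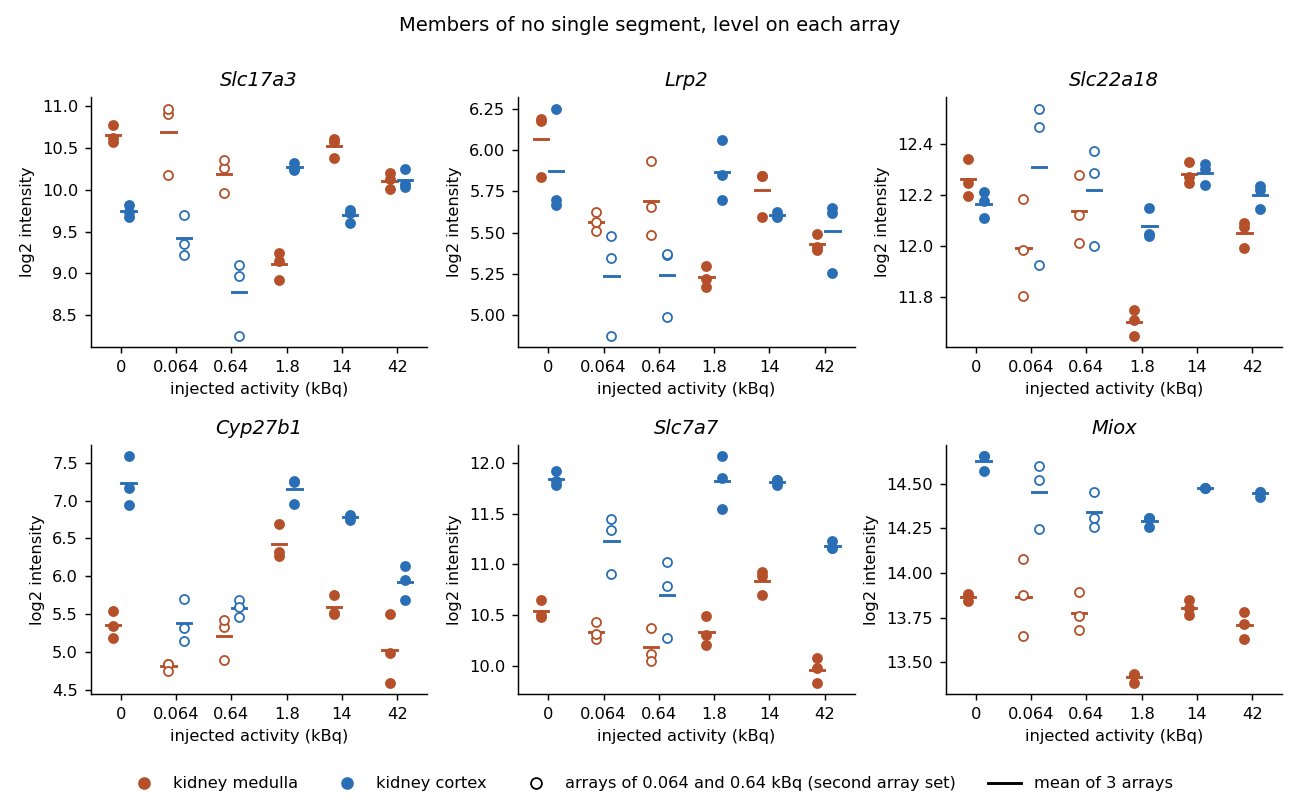
Log2 level on each array by injected activity in kBq for Slc17a3, Lrp2, Slc22a18, Cyp27b1, Slc7a7 and Miox, drawn as in the plot of late and early genes: medulla left in orange-brown, cortex right in blue, open points for the second array set, bars for means of 3 arrays. In medulla Slc17a3 lies at 8.92 to 9.25 at 1.8 kBq and at 10.57 to 10.76 at 0 kBq, while Cyp27b1 lies at 6.27 to 6.69 and at 5.19 to 5.55.

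Whether the zones responded differently was tested as the change in medulla minus the change in cortex, in 1 fit of the 36 kidney arrays. At 1.8 kBq 6 of 31 members differed, 5 more negative and 1 more positive in medulla, where 10.7% of 16486 probes were called, 6.61% negative and 4.09% positive. The split over all probes was 1275 negative and 158 positive under median scaling, against 1089 and 675. The differences were -2.10 ± 0.24 (SE; limma adjusted p = 3.38e-07) for Slc17a3, -1.33 ± 0.33 (adjusted p = 0.00634) for Slc22a7, and 1.12 ± 0.28 (adjusted p = 0.00662) for Cyp27b1. They were -0.81 ± 0.22 (SE; limma adjusted p = 0.0121) for Slc5a1, -0.81 ± 0.25 (adjusted p = 0.0353) for Lrp2 and -0.48 ± 0.16 (adjusted p = 0.0432) for Slc22a18. The value for Slc5a1 was -0.12 in medulla and 0.70 in cortex, and that for Slc17a3 -1.54 and 0.53 on its brightest probe. The other probes of Slc17a3 were below their control means in both zones, and with the mean of all its probes the difference between the zones was -1.35 (limma adjusted p = 0.000842). Left out 1 at a time, any of the 12 arrays ended the call for Slc22a18 (adjusted p 0.0507 to 0.101), 8 of them that for Lrp2 (adjusted p 0.0531 to 0.0945), and replicate 3 of medulla at 0 kBq that for Slc5a1 (adjusted p = 0.053).

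At 42 kBq 2 members differed between the zones, both more negative in medulla, where 1.37% of all probes were called, 1.12% negative and 0.249% positive (137 negative and 7 positive probes under median scaling, against 185 and 41). For Slc22a7 the difference was -1.88 ± 0.33 (SE; limma adjusted p = 0.000533), and for Slc17a3 -0.92 ± 0.24 (SE; limma adjusted p = 0.0392), whose call was lost when any 1 of the 12 arrays was left out (adjusted p 0.056 to 0.105). Slc17a3 had 10.25, 10.07 and 10.03 in cortex at 42 kBq, a change of 0.38 there. For Slc5a8 the difference was -0.48 (limma adjusted p = 0.402), for Slc5a1 -0.64 (adjusted p = 0.16) and for Cyp27b1 0.98 (adjusted p = 0.075), and none of them passed. At 14 kBq no member differed in limma, 4 had an unadjusted p under 0.05, as did 5.58% of all probes, 0.091% of probes were called (0.0728% negative, 0.0182% positive), and Slc22a7 gave -1.16 (adjusted p = 0.253).

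Set beside each other by segment, the late medians at 1.8, 14 and 42 kBq were -0.12, 0.13 and 0.35 in medulla and -0.04, 0.77 and 1.11 in cortex. The early medians at the same activities were -0.10, 0.13 and 0.00 in medulla and -0.16, -0.04 and -0.26 in cortex. The value of -0.10 rests in part on the brightest probes of Slc2a2 and Slc7a9, whose probes disagreed. The value of -0.16 in cortex is that of Slc4a4, which was not detected at 1.8 kBq. In cortex at 1.8 kBq the other probes gave 0.58 and 0.52 for Slc2a2, and -0.01 and 0.43 for Slc7a9. The brightest gave -0.17 and -0.15, and none of these was called. All these comparisons share the 0 kBq arrays of their zone, and 3 late genes were measured against 6 early genes in medulla and 7 in cortex. The 3 late genes were not alike: in cortex Slc5a1 stood at 0.70, 0.75 and 1.02, Slc5a8 at -0.04, 0.84 and 1.11, and Slc22a7 at -0.23, 0.77 and 1.93. Among the early genes in cortex, Slc5a2 stood at -0.08, -0.47 and -0.80, and Slc34a1 at -0.10, 0.00 and -0.04.

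**Figure D4:**
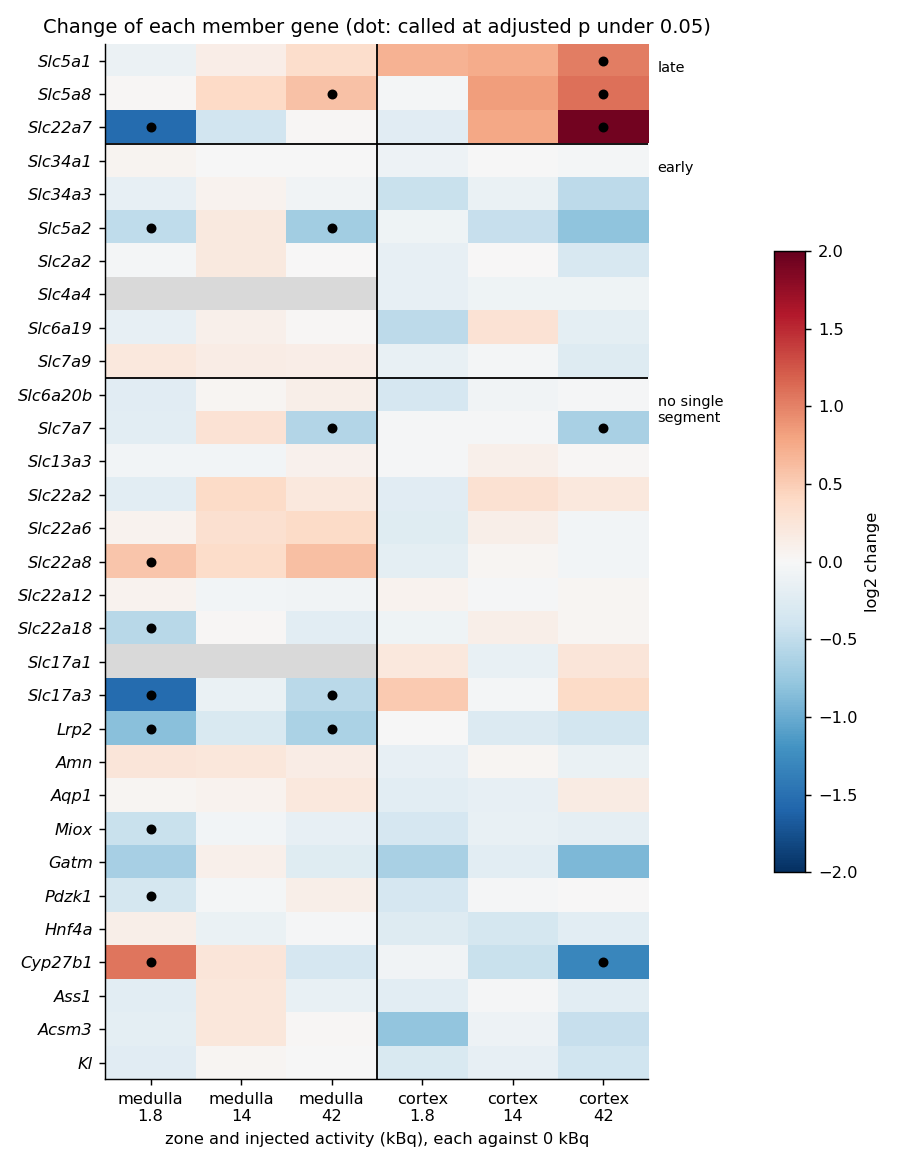
Heat map of log2 changes of the members against 0 kBq of the same zone, with 3 columns for medulla (1.8, 14 and 42 kBq) and 3 for cortex; the colour scale runs from -2 to 2, black dots mark calls and grey cells were not tested. The late genes Slc22a7, Slc5a8 and Slc5a1 reach 1.93, 1.11 and 1.02 in cortex at 42 kBq, and no early gene is called in cortex.

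Over both zones, 12 members were called in at least 1 comparison of 1.8, 14 or 42 kBq with 0 kBq, 4 of them in both zones: Slc5a8, Slc22a7, Slc7a7 and Cyp27b1. The share of all probes called in at least 1 of these comparisons, or in both zones, was not counted. In medulla at 1.8 kBq alone it was 26.6%, so these counts are no result about the members. Cyp27b1 was called upward in medulla at 1.8 kBq and downward in cortex at 42 kBq, and Slc22a7 downward and upward in the same comparisons. Another 19 members were tested and called in none of these. Narrow ranges were seen for Slc22a12, the urate exchanger URAT1, with changes between -0.06 and 0.07, Slc34a1, between -0.10 and 0.05, and Slc13a3, a dicarboxylate carrier, between -0.06 and 0.11. A second probe of Slc13a3 had a wider range, from -0.26 in medulla at 1.8 kBq to 0.14 in cortex at 14 kBq. Slc34a1 was very bright, and quantile normalisation gave it the same level, 15.0548, on several cortex arrays. How far this narrowed its range was not tested. Wider ranges without a call were seen for Gatm, between -0.90 and 0.10, Acsm3, a medium-chain acyl-CoA ligase, between -0.78 and 0.23, Kl, between -0.40 and 0.04, and Hnf4a, between -0.36 and 0.12. Of the members on the array, Slc7a13, Slc13a1, Slco1a1 and Slco1a6 were not detected in either zone, and Slc4a4 and Slc17a1 were not detected in medulla. Slc5a12, Slc6a18, Slc3a1, Slc9a3, Cubn and Ggt1 had no probe by symbol.

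The 0.064 and 0.64 kBq arrays can be compared only with each other, because their array set and their activity cannot be told apart against 0 kBq. At 0.64 kBq against 0.064 kBq no member passed the test in limma in either zone. In medulla 6 members and in cortex 5 had an unadjusted p under 0.05, as did 12.1% and 9.61% of all probes, and 1.16% of all probes in medulla (0.314% up, 0.85% down) and 0.106% in cortex (0.0531% in each direction) were called. Slc5a1 in cortex had 9.03, 9.14 and 8.60 at 0.64 kBq, against 8.85, 8.27 and 8.19 at 0.064 kBq, all above its levels on the other cortex arrays. Slc5a2 in cortex had 10.07, 8.70 and 9.81 at 0.64 kBq, against 10.30, 9.96 and 9.59 at 0.064 kBq, a wider spread than in any group of the first set. Adipoq lay between 5.14 and 12.18 on the cortex arrays of this set. Array 1 of the 0.64 kBq group, which stood apart in Xist, is included in these comparisons.

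Other proximal tubule genes, a list of 45 of which 35 were tested in medulla and 34 in cortex, included larger changes than the members. In cortex at 42 kBq 6 rose, while limma called none downward (3 at an unadjusted p under 0.05), and the top of those that rose were Slc22a19, an organic anion transporter, with 10.21 ± 0.10 at 42 kBq and 6.50 ± 0.26 at 0 kBq, Mep1b, a brush border metalloprotease subunit, with 9.46 ± 0.05 and 5.75 ± 0.30, and Slc22a13, an organic anion transporter, with 11.61 ± 0.08 and 7.97 ± 0.11 (SD, n = 3 arrays each). In cortex at 14 kBq 2 rose, Slc22a13 by 2.18 and Napsa, an aspartic protease, by 1.36, and at 1.8 kBq 1 rose, Cyp2e1, by 1.33. In medulla at 1.8 kBq 4 rose and 15 fell, led by Slc22a19 (-1.87), the aminopeptidase gene Anpep (-1.25) and Kap (-1.25) downward, and by Cyp24a1, the vitamin D 24-hydroxylase (1.43), Cyp2e1 (1.35) and Slc37a4, the glucose 6-phosphate translocase (0.76), upward. In medulla at 42 kBq 1 fell, Slc22a19 (-0.53), and at 14 kBq limma called none, with 13 at an unadjusted p under 0.05. In medulla against cortex at 0 kBq 14 were higher and 15 lower, led by Slc22a19 (5.29), Mep1b (5.19) and Slc22a13 (4.48) upward and by Slc37a4 (-2.18), Cyp24a1 (-1.997) and Dpep1, a brush border dipeptidase (-1.46), downward. The response of this list differed between the zones for 1 gene upward and 7 downward at 1.8 kBq, 2 downward at 14 kBq and 5 downward at 42 kBq.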

How the data were processed

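The members and the gene lists were chosen with earlier results of these data known, including the early and late lists, the 45 other proximal tubule genes and the markers. The deposited table held a linear intensity for each probe and array, neither background-corrected nor normalised, and a detection p-value, per the file headers. A second deposited table held the authors' processed intensity, whose normalisation is not given in the sources used here; its column medians were 117 to 118 on the 60 arrays of the first set and 165 on the other 30. The sets were read from the deposited values, of which, at a tolerance of 0.01 of a step, a median of 99.5% per array fell on multiples of 1/80 in the first set and 99.3% on multiples of 1/33 in the second.

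From the unnormalised intensity, background was corrected by normexp estimated from the detection p-values with an offset of 16, and log2 levels were quantile normalised within each zone (limma 3.58.1, R 4.3.3). Probes were tested in a zone if 3 or more of its arrays gave a detection p under 0.05. limma fitted 1 mean per group over the 18 arrays of a zone, with an intensity trend, two-sided tests and Benjamini-Hochberg adjustment over all probes. Medulla was set against cortex, and their responses against each other, in 1 fit of the 36 arrays normalised together. Every adjusted p for a gene is from limma, and the number of arrays limits the precision. A fold against an undetected probe is a lower bound from the detection limit of its arrays. The procedure was tested on simulated data.

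All members are named, with the brightest detected probe of 10 members that have several. Of the other proximal tubule genes, up to 3 called changes in each direction are named. Genes were named through the platform annotation, which gave 1 symbol to 23978 of 25697 probes and none to 1719. Replicate numbers are shared by the groups of a zone. Deviations of same-numbered arrays correlated at 0.263, 0.107 and 0.147 between 1.8 and 0 kBq in cortex, and at 0.316, 0.0904 and 0.204 between 14 and 0 kBq. Between 42 and 0 kBq in cortex they correlated at 0.294, 0.063 and 0.171. In medulla the values against 0 kBq were 0.0771, 0.0828 and 0.228 at 1.8 kBq, and 0.0682, 0.121 and 0.241 at 14 kBq. At 42 kBq in medulla they were 0.08, 0.095 and 0.237. Between medulla and cortex the values were 0.354, 0.131 and 0.37 at 0.064 kBq and 0.309, 0.352 and 0.178 at 0.64 kBq. At the other activities they lay between -0.102 and 0.0655. Whether same-numbered arrays are pairs cannot be told from such values, and the reported fits have no block. The alternatives were other background corrections, scalings, filters, probe rules, array weights, no intensity trend, a replicate block, the fit without the 0.064 and 0.64 kBq arrays, and each array left out.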

Additional observations from a re-analysis of the deposited data

Results flagged for a closer look

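The response to 211At differed between the zones in 8 results, by the test of the difference itself (medulla change minus cortex change, limma, 3 arrays per group). At 1.8 kBq, where 10.7% of all probes were called, the differences were -2.10 for Slc17a3, -1.33 for Slc22a7, -0.81 for Slc5a1, -0.81 for Lrp2, -0.48 for Slc22a18 and 1.12 for Cyp27b1. With 1 array left out at a time, any of the 12 arrays ended the call for Slc22a18, 8 of them that for Lrp2 and 1 that for Slc5a1. For Slc17a3 the mean of all probes gave -1.35. At 42 kBq, where 1.37% of all probes were called, the differences were -1.88 for Slc22a7 and -0.92 for Slc17a3. The same 2 genes, a urate and anion carrier and an organic anion transporter, therefore differed at both activities, though for Slc17a3 at 42 kBq the call was lost when any 1 of the 12 arrays was left out (adjusted p 0.056 to 0.105), and both comparisons use the same 0 kBq arrays. Groups of 3 arrays were not tested for single arrays that stand apart.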

How the results depend on the processing

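Over 51 called member results and their 934 values under alternatives, 0 reversed and 88 lost the call, and 40 results were called under all of them. Members called in cortex at 1.8 kBq numbered 0 as reported, but 8 without the 0.064 and 0.64 kBq arrays, 6 with array weights, 2 with the filter on detection on all arrays, 2 with the replicate block (adjusted p 0.0152 for Slc5a1 and 0.0479 for Miox), and 1 with no background correction, with an offset of 50, with the deposited value table or with the mean of all probes. At 14 kBq in cortex 0 became 4 without those arrays and 2 with weights, and at 42 kBq 5 became 9 and 8. Calls over all probes in cortex rose too. At 1.8 kBq 301 became 1293 without those arrays and 1119 with weights. At 14 kBq 18 became 396 and 356, and at 42 kBq 256 became 800 without those arrays. For 0.64 against 0.064 kBq in cortex, weights gave 1. In medulla at 14 kBq 0 became 3 without those arrays, 1 with weights and 1 with the replicate block, and leaving out an array gave 0 to 1. In medulla at 42 kBq 5 became 3 with no filter and 8 with weights, and 3 to 5 with an array left out. For 0.64 against 0.064 kBq in medulla, median scaling gave 4, array weights 2, the deposited values gave 1, and leaving out an array 0 to 2 (2 without 0.064 kBq replicate 1, 1 without 0.64 kBq replicate 3). For the differences between zones, 6 at 1.8 kBq became 10 without those arrays and 10 with weights (4 to 6 with an array left out), 0 at 14 kBq became 2, 1 with weights and 1 with the replicate block, and 2 at 42 kBq became 5, with 4 under weights and 1 under median scaling or no intensity trend (1 to 2 with an array left out). Counts stayed at 8 to 13 in medulla at 1.8 kBq and 23 to 26 for medulla against cortex, and leaving out an array gave 7 to 9, 23 to 25, and 4 in cortex at 42 kBq. Slc7a7 lost its call in cortex at 42 kBq, and Acsm3 in 7 of 18 alternatives for medulla against cortex. Sizes moved by over 1.5 times for 19 results in 41 values: 15 without background correction, 15 in the deposited value table, 5 with an offset of 50, 4 with the mean of all probes and 2 under median scaling. Without background correction and in the deposited table these sizes were smaller: for Lrp2 -0.29 and -0.25 in medulla at 1.8 kBq, and -0.23 and -0.19 at 42 kBq, for Slc22a8 0.35 and 0.33 at 1.8 kBq, for Slc22a7 -1.06 and -0.98 in the difference between zones at 42 kBq, and, in that at 1.8 kBq, -0.49 and -0.46 for Slc5a1, -0.27 and -0.24 for Lrp2 and 0.44 and 0.40 for Cyp27b1. Medulla against cortex gave 0.51 and 0.48 for Slc5a1 and -0.53 and -0.48 for Acsm3. With an offset of 50, Lrp2 had -0.50 and Cyp27b1 0.68 in medulla at 1.8 kBq. Median scaling gave -0.91 for Slc34a1 in medulla against cortex, and the mean of all probes -0.52 for Slc7a9 and 1.05 for Aqp1. The causes were not tested, except that leaving out arrays lowers their number. The replicate block lost no call of the reported fits and added at most 3 members to a count.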

Other observations

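Set against the other tissues at 0 kBq, with all 90 arrays normalised together, the members were largely kidney genes. All 3 arrays detected 29 members in kidney medulla, 29 in kidney cortex, 11 in liver, 7 in lung and 5 in spleen. Of the 29 detected in a kidney zone, 26 had their highest mean in a kidney zone. The exceptions were Slc2a2, with 11.35 in cortex and 11.80 in liver, Acsm3, with 6.87 in cortex and 9.88 in liver, and Aqp1, with 13.93 in medulla, 14.21 in lung and 13.70 in spleen. Liver also detected Pdzk1 (11.23), Hnf4a (11.55), the urea cycle enzyme gene Ass1 (13.55), Slc22a18 (10.46), Slc17a3 (8.49) and Slc22a7 (7.88). For Slc22a7 the liver level lay between those of medulla (8.87) and cortex (6.03), while Slc34a1, Slc5a2, Slc6a19 and Kl were undetected on at least 2 of the 3 arrays of each tissue outside the kidney. These values are descriptions and were not tested.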
